A study of Drosophila melanogaster with 12 samples.

Results

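Rab genes encode small GTPases that mark the membranes of the cell, and their transcripts were followed here in 12 RNA-seq libraries of Drosophila melanogaster with normal and lowered Ataxin-2. A gene was taken as a Rab when its FlyBase symbol was Rab followed by a number, or Rab followed by X and a number. The rule matched 36 of the 17737 genes in each count table. Of these, 33 encode Rab GTPases, and the other 3 (Rab3-GEF, Rab3-GAP and Rab3GAP1) encode regulators of Rabs and are described apart. The rule used names alone and no measured value. By known roles the 33 fall into 13 general Rabs found in most cells, 4 neuron-rich Rabs (Rab3, Rab26, Rab27 and RabX4), 11 other Rabs, and 5 Rab9-like copies (Rab9D, Rab9Db, Rab9E, Rab9Fa and Rab9Fb).

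A Rab bound to GTP sits on its membrane and recruits effectors such as tethers, motors and lipid kinases, while a Rab bound to GDP is drawn off the membrane by the GDP dissociation inhibitor. Exchange factors (GEFs) load GTP, GTPase-activating proteins (GAPs) end the active state, and a prenyl group added by the geranylgeranyl transferase holds the Rab in the lipid layer. Each step of vesicle traffic has its own Rabs, from the endoplasmic reticulum through the Golgi to the surface, and from the surface through endosomes to lysosomes. In neurons a further set serves synaptic vesicles and regulated secretion.

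The libraries form 4 groups of 3. S2 cells are a hemocyte-like line made from fly embryos, and they were given double-stranded RNA (dsRNA) against Atx2 or are labelled as untreated. The brains came whole from 3rd instar larvae. One group expressed a short hairpin RNA (shRNA) against Atx2 through elav gal4, a driver active in neurons, and the control group is labelled as untreated. No control dsRNA, driver or hairpin is named for either control group, so an effect of dsRNA, driver or hairpin as such cannot be told apart from one of lowered Atx2. In whole brains, fewer cells of a type and less RNA per cell cannot be told apart. The labels do not state that the replicates are separate cultures or animals. The p-values therefore refer to the spread among these libraries, part or all of which may be technical.

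Control S2 libraries held 25994555 to 29020252 counts each and dsRNA S2 libraries 14944637 to 20400465. Control brains had 29754856 to 31579528 and shRNA brains 26442727 to 28086056. Levels are given as CPM, counts relative to a library size corrected by edgeR's TMM factors. Atx2 itself was at 242, 218 and 226 CPM in control S2 cells and at 149, 55.3 and 166 CPM after dsRNA, groups that did not overlap, but the change missed the threshold (log2 fold change −0.89, SE 0.35, adjusted p = 0.0613 in edgeR's quasi-likelihood test). In brain it was at 187, 195 and 197 CPM in controls and at 92.4, 97.8 and 104 CPM under shRNA (log2 fold change −0.97, adjusted p = 0.00271). Most, but not all, defining markers matched the labels. The neuronal RNA-binding protein elav was at 458 to 566 CPM in control brains and 30.6 to 33.1 CPM in control S2 cells. The glial factor repo was at 76.9 to 85.8 CPM in control brains. The summed level of 5 hemocyte markers was 1311 to 2161 CPM in control S2 cells. Between the controls, 7 of 8 neuron and 4 of 5 glial markers were higher in brain (adjusted p under 0.05 in edgeR), while Syx1A and moody were lower there. Of the 5 hemocyte markers, Hml, eater and srp were lower in brain, but Pxn and NimC1 were higher. Several libraries held transcripts of other tissues. Summed gut markers were at 2102 CPM in shRNA brain library 1 and at most at 2.32 CPM in every other library, summed salivary markers were at 1572 CPM in control brain library 3, and summed muscle markers were at 924 CPM in shRNA brain library 2. Summed fat body markers were at 2820 CPM in shRNA brain library 1 and 1073 CPM in shRNA brain library 2, against 22.5 to 339 CPM in control brains.

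All 33 Rabs could be placed in the annotation. They lie on the 5 large chromosome arms, 13 on X and 5 on each of 2L, 2R, 3L and 3R, so 39.4% of them are X-linked against 15.6% of protein-coding genes in the tables. Counts reached the filter for testing for 26 Rabs in each comparison, the same 26 each time. The other 7 were the Rab9-like copies, RabX2 and RabX5, and held at most 10 counts over all 12 libraries.

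Levels of different genes were compared as CPM per kb of exon on a scale common to all 12 libraries. Rab11, which marks recycling endosomes, had the highest mean level in all 4 groups, at 320 ± 7.87 CPM per kb in control S2 cells, 197 ± 25.7 after dsRNA, 206 ± 22.7 in control brain and 177 ± 16.2 in shRNA brain (SD, n = 3 each). In control S2 cells it was followed by Rab7 (late endosomes and lysosomes) at 190 CPM per kb, Rab1 (endoplasmic reticulum to Golgi) at 135, Rab2 (Golgi and carriers to lysosomes) at 116 and Rab5 (early endosomes) at 116. In control brain Rab2 came second at 101 CPM per kb, then Rab5 at 93.4, Rab7 at 87.8 and Rab1 at 75.1. Neighbours in the order were often not separable: 16 of 27 neighbouring pairs in control brain and 15 of 26 in control S2 cells had overlapping libraries, Rab2 and Rab5 among them in both groups.

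The rest of the general Rabs spread over the middle and lower parts of the order. In control brain the means were 69.1 CPM per kb for Rab4 (fast recycling), 58.4 for Rab10 (polarised secretion), 58.4 for Rab6 (Golgi), 57.4 for Rab8 (Golgi to plasma membrane), 41.5 for Rab35 (recycling from the plasma membrane), 30.5 for Rab14 (endosomes and phagosomes), 25.6 for Rab18 (endoplasmic reticulum and lipid droplets) and 12.5 for Rab21 (early endosomes and integrin uptake). The 9 tested members among the other Rabs ranged in control brain from 53.0 CPM per kb for RabX1 through 26.6 for Rab39 (lysosomes), 19.8 for Rab19, 19.2 for Rab40 (a Rab with a SOCS box), 14.0 for Rab30 (Golgi), 13.1 for Rab23 (planar cell polarity), 6.84 for RabX6 and 3.77 for Rab9 (late endosome to Golgi in mammals) to 2.49 for Rab32 (lysosome-related organelles and eye pigment granules). Neuron-rich Rabs sat in the middle and lower parts of that order, with RabX4 at 42.0 CPM per kb, Rab3 at 40.2, Rab26 at 8.18 and Rab27 at 7.998. Rab3 lay below 10 general Rabs in mean level there, and its libraries overlapped those of Rab35, its neighbour in the order.

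**Figure D1:**
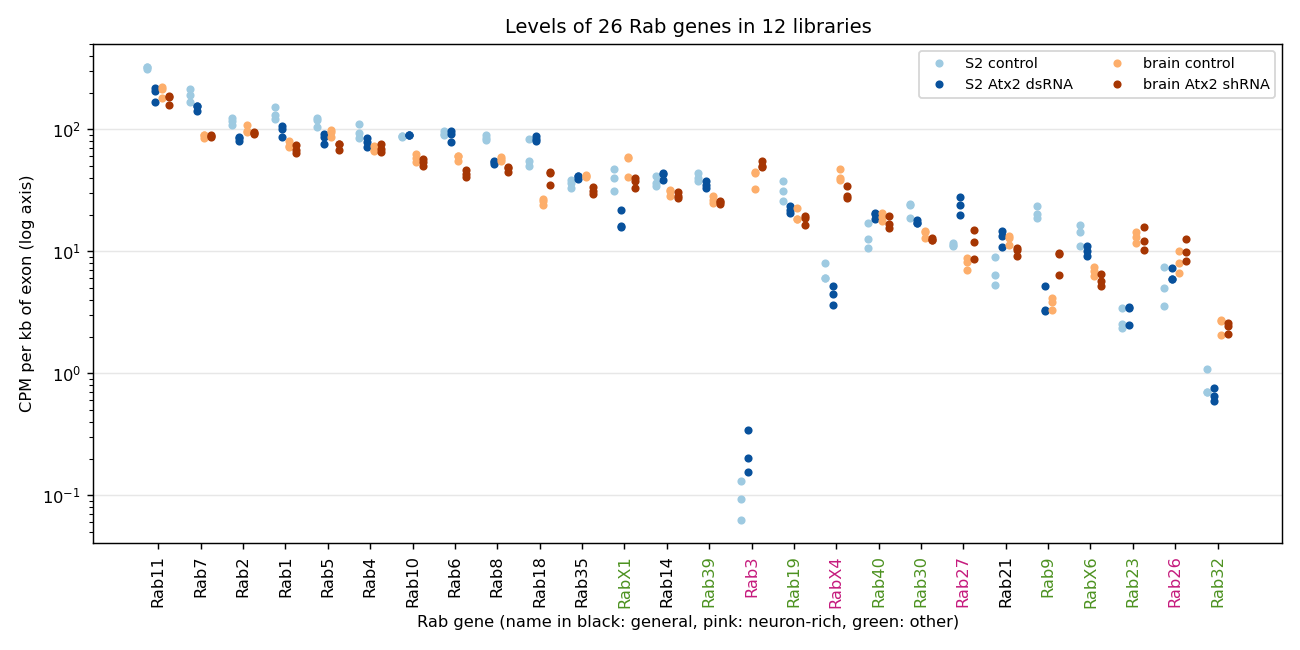
Level of each of the 26 Rab genes that passed the filter, as CPM per kb of exon on a log axis, in 12 libraries; each point is 1 library and genes are ordered by their mean over all libraries. Rab11 has the highest mean in every group, and Rab3 is 0.0628 to 0.346 CPM per kb in S2 libraries and 32.2 to 54.8 in brain libraries.

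The first comparison set control brains against control S2 cells, which places the neuron-rich Rabs beside the general ones. Of the 26 Rabs, 23 were called (adjusted p under 0.05), 7 higher and 16 lower in brain, while 80.1% of all genes tested were called, 41.9% higher and 38.3% lower. Groups did not overlap for 23 of the 26, against 83.4% of all genes tested. The median log2 fold change was −0.47 over the 26 Rabs and 0.06 over all 10291 genes tested. Tissue, culture and preparation cannot be told apart in this comparison. With RLE scaling 9 Rabs were called higher and 14 lower, and with library totals alone 9 and 9, so the split depends on the scaling. Of all genes tested, 79.7% and 78.6% were called under these scalings.

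Rab3, which acts on synaptic vesicles and at active zones, had the largest difference. It was at 0.449, 0.323 and 0.217 CPM in control S2 cells and at 112.5, 152.1 and 156 CPM in control brains (log2 fold change 8.71, SE 0.24, adjusted p = 2.07e-08). RabX4 was at 10.5, 7.79 and 7.80 CPM in S2 cells and at 52.7, 62.2 and 50.7 CPM in brain (2.67, SE 0.16, adjusted p = 1.20e-06). Both were higher in every brain library than in any S2 library. The other neuron-rich genes differed less or in the other direction. Rab26, also linked to synaptic vesicles, was at 29.7, 14.2 and 20.1 CPM in S2 cells and at 26.7, 40.4 and 32.1 CPM in brain, groups that overlapped (0.63, adjusted p = 0.0574). Rab27, a Rab of regulated secretion, was lower in brain, at 10.2, 12.8 and 11.8 CPM against 16.7, 15.9 and 16.3 CPM in S2 cells (−0.49, adjusted p = 0.0109). That call was lost with library totals alone (adjusted p = 0.459), and without control brain library 1.

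Another 5 genes were called higher in brain: Rab23 (log2 fold change 2.25), Rab32 (1.60), Rab21 (0.88), Rab40 (0.52) and Rab35 (0.22). Of the 13 general Rabs 10 were called lower in brain and 2 higher, against 38.3% and 41.9% of all genes tested. The lower ones ran from Rab18 (−1.27) and Rab7 (−1.10) through Rab1 (−0.83), Rab6 (−0.65), Rab11 (−0.62), Rab10 (−0.57), Rab8 (−0.56) and Rab4 (−0.46) to Rab5 (−0.29) and Rab14 (−0.27). With library totals alone the values of Rab5 and Rab14 turned to 0.07 and 0.09. The calls of Rab5 and Rab14, and those of Rab35 and Rab40 among the higher genes, were also lost when 1 of several libraries was left out. Among the other Rabs, Rab9 was the furthest below S2 cells, at 5.71, 4.90 and 6.204 CPM in brain against 34.8, 27.8 and 29.6 CPM (−2.45, SE 0.15, adjusted p = 1.65e-06). RabX6 (−1.01), Rab19 (−0.66), Rab30 (−0.66) and Rab39 (−0.59) were also called lower. Rab2 (−0.19, adjusted p = 0.0696, and 0.18 with library totals alone) and RabX1 (0.44, adjusted p = 0.0608) were not called.

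In S2 cells, dsRNA against Atx2 came with changes in both directions among the Rabs, led by a fall of Rab9. Of 26 Rabs tested, 14 were called, 3 higher and 11 lower, against 55.0% of all genes tested, 28.5% higher and 26.6% lower. The 14 are 53.8% of the Rabs tested, which is near the share of all genes. Groups did not overlap for 19 of the 26 Rabs, against 63.8% of all genes tested. The median log2 fold change was −0.31 over the Rabs and 0.04 over all genes. Direction depended on the library scaling: with library totals alone, which moved the median of all genes from 0.04 to 0.53, 12 Rabs were called higher and 2 lower, and with upper quartile scaling 7 higher and 5 lower. Of all genes tested, 68.8% were called with library totals alone and 58.2% with upper quartile scaling. Without control library 3 the count of called Rabs was 7, and 41.7% of all genes tested were called. The summed level of hemocyte markers moved with the groups too, from 1311 to 2161 CPM in controls to 221 to 297 CPM after dsRNA, with 4 of 4 tested markers lower, and its part in the Rab changes was not tested.

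**Figure D2:**
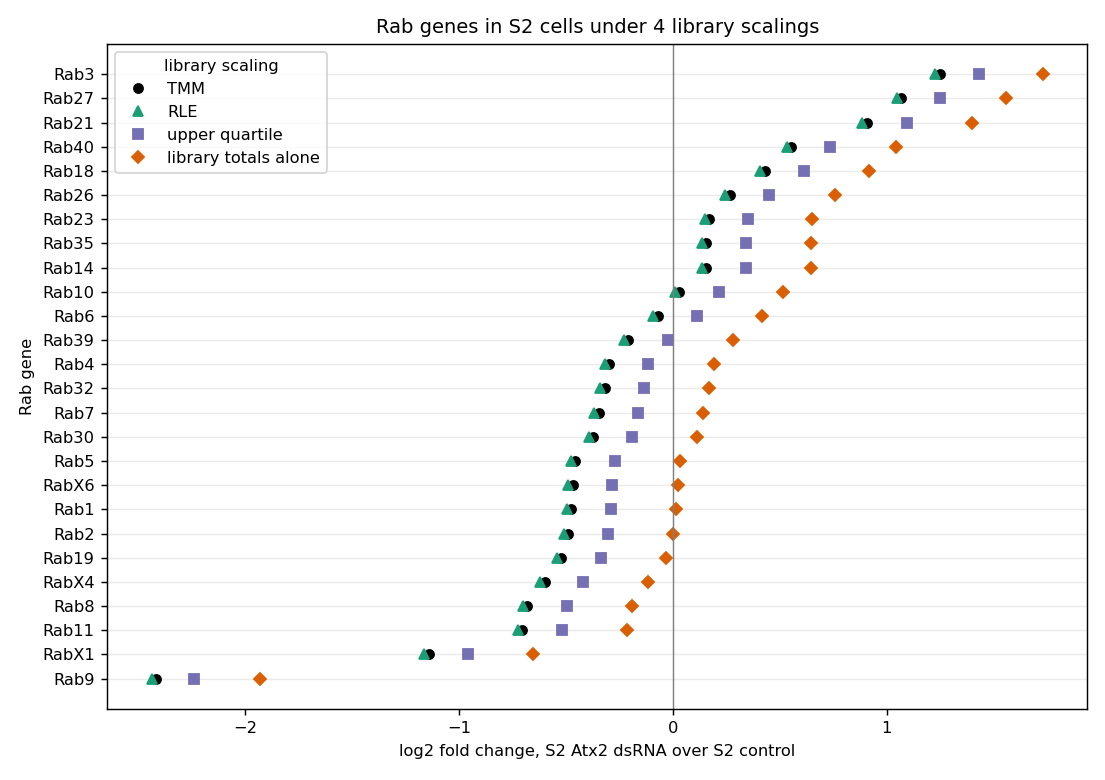
Log2 fold change of the 26 Rab genes in S2 cells (Atx2 dsRNA over control) under 4 library scalings, 1 symbol per scaling, with genes ordered by the TMM value. Rab9 and RabX1 lie below 0 and Rab27, Rab21 and Rab40 above 0 under all 4, while Rab1, Rab4, Rab5, Rab6, Rab7, Rab30, Rab32, Rab39 and RabX6 cross 0 with library totals alone.

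The S2 calls of Rab9, RabX1 and Rab27 held under every alternative tried, and those of the other 11 Rabs did not. Rab9 was at 35.1, 29.6 and 31.3 CPM in control libraries and at 7.84, 4.99 and 5.07 CPM after dsRNA, a 5.34-fold fall (log2 fold change −2.42, SE 0.21, adjusted p = 7.17e-05). RabX1 was at 71.9, 49.96 and 64.3 CPM and fell to 24.3, 25.4 and 34.8 CPM (−1.14, SE 0.19, adjusted p = 0.00143). Both genes were lower in every dsRNA library than in any control. Rab27 moved the other way, from 16.8, 16.9 and 17.2 CPM to 41.0, 35.8 and 29.9 CPM, a 2.10-fold rise (1.07, SE 0.14, adjusted p = 0.000516). Its 3 control values lay close together, and all 3 dsRNA values were above them.

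Among secretory Rabs, Rab8 fell from 194, 183 and 191 CPM to 119, 119 and 116 CPM (−0.68, SE 0.09, adjusted p = 0.000599). Rab2 (−0.49), Rab1 (−0.47) and Rab30 (−0.37) were also called lower. With library totals alone none of these 4 was called, and Rab1 and Rab30 stood at 0.01 and 0.11. Rab30 was also not called without control library 1 or 3 or dsRNA library 2 or 3. Rab40 was called higher, from 27.4, 17.9 and 21.3 CPM to 33.4, 33.5 and 30.8 CPM (0.55, SE 0.17, adjusted p = 0.0220), and that call was lost without control library 2, without control library 3 and without dsRNA library 2. Rab6 (−0.07, and 0.41 with library totals alone), Rab10 (0.03) and Rab18 (0.43, adjusted p = 0.0669) were not called.

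Among endosomal Rabs, Rab11 fell from 541, 551 and 575 CPM to 285, 378 and 361 CPM (−0.70, SE 0.13, adjusted p = 0.00241). Rab5, at 359, 320 and 366 CPM, was called lower at 222, 261 and 278 CPM (−0.46, adjusted p = 0.0140), and Rab7, at 334, 277 and 316 CPM, at 225, 250 and 253 CPM (−0.35, adjusted p = 0.0324). For none of these 3 did the groups overlap, but with library totals alone the values of Rab5 and Rab7 turned to 0.03 and 0.14 and that of Rab11 shrank to −0.22. Rab19 was called lower (−0.52, adjusted p = 0.0173). Without control library 3 neither Rab5, Rab7 nor Rab19 was called, and Rab7 also lost the call without control library 1, dsRNA library 2 or dsRNA library 3. Rab21, of early endosomes, was called higher, from 10.3, 7.68 and 6.38 CPM to 12.5, 15.7 and 17.6 CPM (0.91, SE 0.23, adjusted p = 0.0105), and lost the call without control library 3 (adjusted p = 0.0544). Rab14 (0.16) and Rab35 (0.16) were not called, nor were Rab4 (−0.30), Rab32 (−0.32) and Rab39 (−0.21), which stood at 0.19, 0.17 and 0.28 with library totals alone.

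Of the remaining neuron-rich genes, RabX4 was called lower in S2 cells, from 10.6, 8.28 and 8.26 CPM to 6.84, 4.91 and 6.16 CPM (−0.60, SE 0.21, adjusted p = 0.0404), but lost the call without any 1 of the control libraries, dsRNA library 2 or dsRNA library 3, and with library totals alone. Rab3 stayed near the limit of detection, with 11, 8 and 5 counts in controls and 13, 17 and 22 counts after dsRNA. Its groups did not overlap and its adjusted p was 0.0516 (1.25, SE 0.47). Rab26 was not called (0.27, adjusted p = 0.376), nor were Rab23 (0.17) and RabX6 (−0.47, adjusted p = 0.0538, and 0.022 with library totals alone). RabX6 shares 36.2% of its exon length with Vti1a on the opposite strand, and Vti1a was at 16.8 to 21.0 CPM in control and 32.7 to 35.5 CPM in dsRNA S2 libraries. The strand setting of the counting is not known here, and reads of these 2 genes may not be separable.

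In larval brain, Atx2 shRNA under elav gal4 came with 8 called Rabs, 2 higher (Rab9 and Rab18) and 6 lower (Rab35, Rab6, Rab5, Rab8, RabX4 and RabX1), of 26 tested. That is 30.8% of the Rabs, and 23.0% of all genes tested were called, 11.5% in each direction. Groups did not overlap for 12 of the 26 Rabs, against 44.5% of all genes tested. The median log2 fold change was −0.14 over the Rabs and 0.01 over all genes. The count of calls depended on single libraries. Without control library 2 edgeR called 0 Rabs (9 had an unadjusted p under 0.05), without shRNA library 2 it called 1 (Rab6), without control library 1 it called 2 and without shRNA library 1 it called 5. Calls over all genes fell in the same fits, to 4.58, 7.73, 9.28 and 13.1% of genes tested, so the loss is not particular to the Rabs. Without both control library 3 and shRNA library 1, which held the salivary and gut transcripts, 3 were called (Rab9, RabX4 and RabX1). In that fit 11.7% of all genes tested were called.

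Rab9 rose from 6.46, 5.54 and 7.10 CPM in control brains to 16.3, 15.9 and 10.8 CPM under shRNA, a 2.25-fold change (log2 fold change 1.17, SE 0.21, adjusted p = 0.0146). Rab18 rose from 21.1, 22.5 and 23.9 CPM to 38.7, 38.2 and 30.0 CPM (0.66, SE 0.12, adjusted p = 0.0152). For both genes every shRNA library was above every control, and shRNA library 3 was the lowest of its group. Both lost the call without control library 1, control library 2 or shRNA library 2.

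The lower Rabs changed by smaller amounts. Rab35 fell from 152.4, 158 and 154 CPM to 110, 114.8 and 123 CPM (−0.41, SE 0.07, adjusted p = 0.0135), and Rab6 from 109, 120 and 122 CPM to 84.7, 91.4 and 80.1 CPM (−0.45, SE 0.08, adjusted p = 0.0151). Rab5 fell from 314, 324 and 291 CPM to 223, 249 and 250 CPM (−0.36, SE 0.08, adjusted p = 0.0249). In these 3 genes, with roles in recycling, Golgi traffic and early endosomes, the groups did not overlap. Rab8 was at 134, 145 and 141 CPM in controls and at 108, 116 and 117 CPM under shRNA (−0.30, SE 0.07, adjusted p = 0.0303). RabX4 was at 59.6, 70.4 and 58.1 CPM in controls and at 50.6, 42.1 and 40.3 CPM under shRNA (−0.50, SE 0.12, adjusted p = 0.0286). RabX1, at 101, 103 and 71.4 CPM, was at 56.5, 68.2 and 64.3 CPM (−0.55, SE 0.16, adjusted p = 0.0484), and control library 3 sat close to the shRNA values.

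Rab3 was not called, although its groups did not overlap, with 127, 172 and 178 CPM in controls and 216, 197 and 194 CPM under shRNA (0.34, SE 0.14, adjusted p = 0.116). Rab27 was at 11.6, 14.5 and 13.5 CPM and at 24.4, 19.3 and 14.0 CPM (0.54, SE 0.22, adjusted p = 0.112), groups that overlapped through shRNA library 3. It was called without that library (adjusted p = 0.0350). Rab26 was at 30.2, 45.7 and 36.7 CPM and at 57.5, 44.6 and 37.7 CPM (0.31, adjusted p = 0.297), so its groups overlapped. The remaining general Rabs were not called, with log2 fold changes of −0.34 for Rab21, −0.24 for Rab11, −0.15 for Rab1, −0.14 for Rab10, −0.13 for Rab2, −0.09 for Rab14, −0.01 for Rab7 and −0.00 for Rab4. The same holds for RabX6 (−0.26), Rab30 (−0.17), Rab40 (−0.16), Rab19 (−0.13), Rab39 (−0.09), Rab32 (−0.08) and Rab23 (−0.05).

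Markers of several brain cell types moved with the shRNA group. Summed neuroblast markers were at 384 to 413 CPM in controls and 145 to 198 CPM under shRNA, with 4 of 5 genes called lower. Summed glial markers were at 732 to 1012 CPM and 1211 to 1966 CPM, with 4 of 5 called higher. Summed neuron markers overlapped, at 1816 to 2318 CPM and 1844 to 2106 CPM, with 1 of 8 genes called higher and 2 lower, elav (−0.72) and fne (−0.83). Summed hemocyte markers were at 114.99 to 195 CPM in controls and 272 to 419 CPM under shRNA, without overlap, with Hml and Pxn called higher of 5 genes. The other 3, eater, NimC1 and srp, were not called. NimC1 was at 5.01 to 10.7 CPM in controls and 4.39 to 6.92 CPM under shRNA. Of all genes tested in brain, 11.5% were called higher. Between the controls, 16 of the 26 Rabs were called lower in brain than in S2 cells, against 38.3% of all genes tested. Of the 16, Rab9 (−2.45) and Rab18 (−1.27) were called higher under shRNA. Rab5 (−0.29), Rab6 (−0.65) and Rab8 (−0.56), also among the 16, were called lower under shRNA. The part of these cell types in the Rab changes was not tested.

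**Figure D3:**
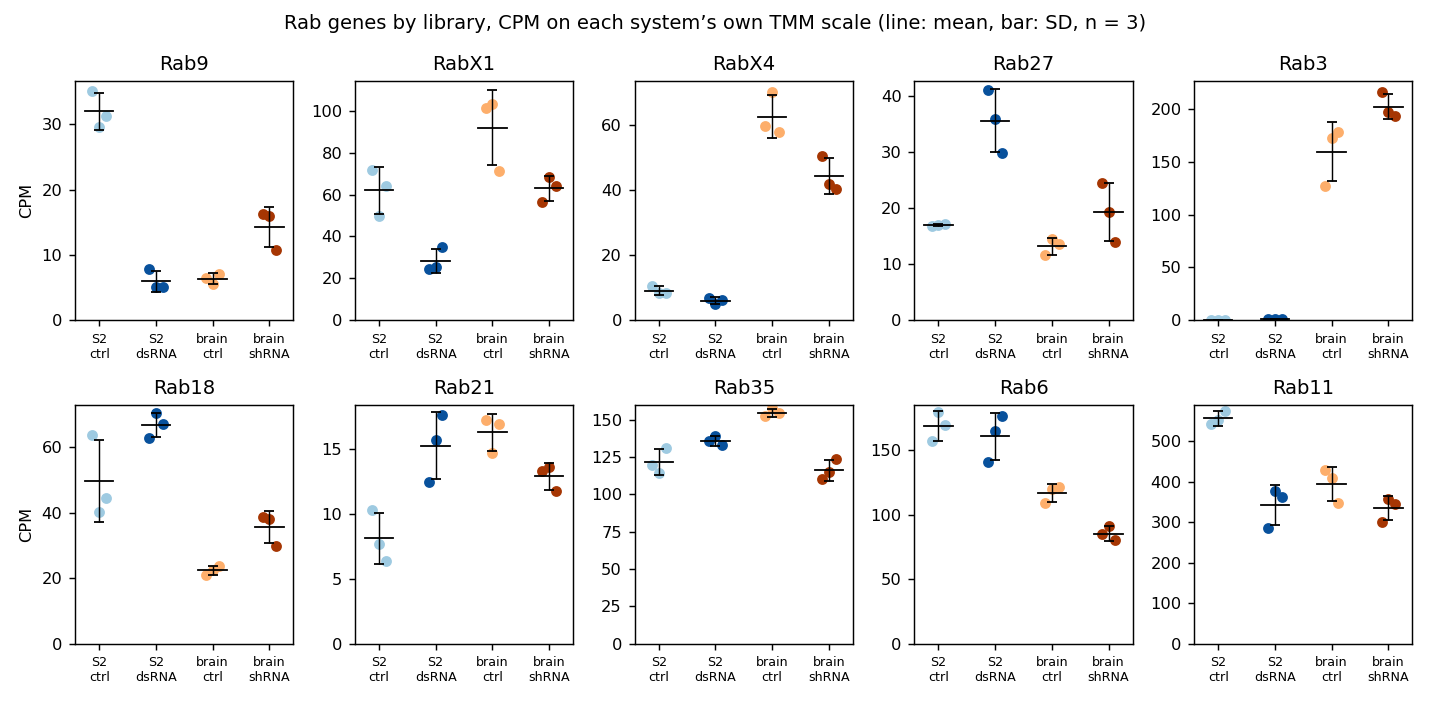
CPM of 10 Rab genes in each library of the 4 groups, each point 1 library, the line the mean and the bar the SD (n = 3); S2 and brain libraries were scaled separately and each axis starts at 0. Rab9 falls from 29.6 to 35.1 CPM to 4.99 to 7.84 CPM in S2 cells and rises from 5.54 to 7.10 CPM to 10.8 to 16.3 CPM in brain.

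The effects in brain and in S2 cells were then compared directly, as an interaction over all 12 libraries. The effects differed for 9 of 26 Rabs, or 34.6%, against 41.1% of all genes tested. Of the 9, 5 were above 0 (19.7% of all genes) and 4 below (21.4% of all genes). Rab9 had the largest difference: its log2 fold change in brain was 3.59 above that in S2 cells (SE 0.32, adjusted p = 1.38e-05), with a fall in S2 cells and a rise in brain. The difference was also above 0 for Rab11 (0.47), Rab8 (0.39), Rab2 (0.37) and Rab7 (0.35), all of which were called lower in S2 cells, and with library totals alone it turned to −0.01, −0.10, −0.11 and −0.14. It was below 0 for Rab21 (−1.23, adjusted p = 0.00508), Rab40 (−0.70), Rab35 (−0.56, adjusted p = 0.00205) and Rab6 (−0.37). Calls for Rab9, Rab21 and Rab35 held under every alternative tried. Among calls with upper quartile scaling 1 Rab was above 0 and 6 below, and with library totals alone 1 and 10. Of all genes tested, 43.8% and 51% were called under these scalings. The count of calls was 5 without S2 control library 3, brain control library 2, brain control library 3 or brain shRNA library 3. In these fits 33.7, 34.8, 36.9 and 38% of all genes tested were called.

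Both knockdown comparisons have their own controls, so their calls can be set side by side. Rab5, Rab8, RabX4 and RabX1 were called lower in both systems, and Rab9 was called in both with opposite signs. With library totals alone the S2 calls of Rab5, Rab8 and RabX4 were lost, and none of the 8 brain calls held under every alternative. Of all genes tested, 55.0% were called in S2 cells and 23.0% in brain. The share of all genes called, or with like signs, in both systems was not counted. Rab21, Rab27 and Rab40 were called higher in S2 cells and not called in brain. Rab18 was called higher, and Rab35 and Rab6 lower, in brain without a call in S2 cells. For Rab27, Rab18, RabX1 and RabX4 the difference between systems was not called (−0.52, 0.25, 0.61 and 0.11, adjusted p = 0.152, 0.445, 0.0993 and 0.749). In all, 15 of the 26 Rabs had log2 fold changes below 0 in both systems, 4 above 0 in both, 6 above 0 in S2 cells and below in brain, and 1 (Rab9) the reverse. With library totals alone these counts were 6 below 0 in both, 6 above 0 in both, 13 and 1, and with upper quartile scaling 12, 4, 7 and 3.

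**Figure D4:**
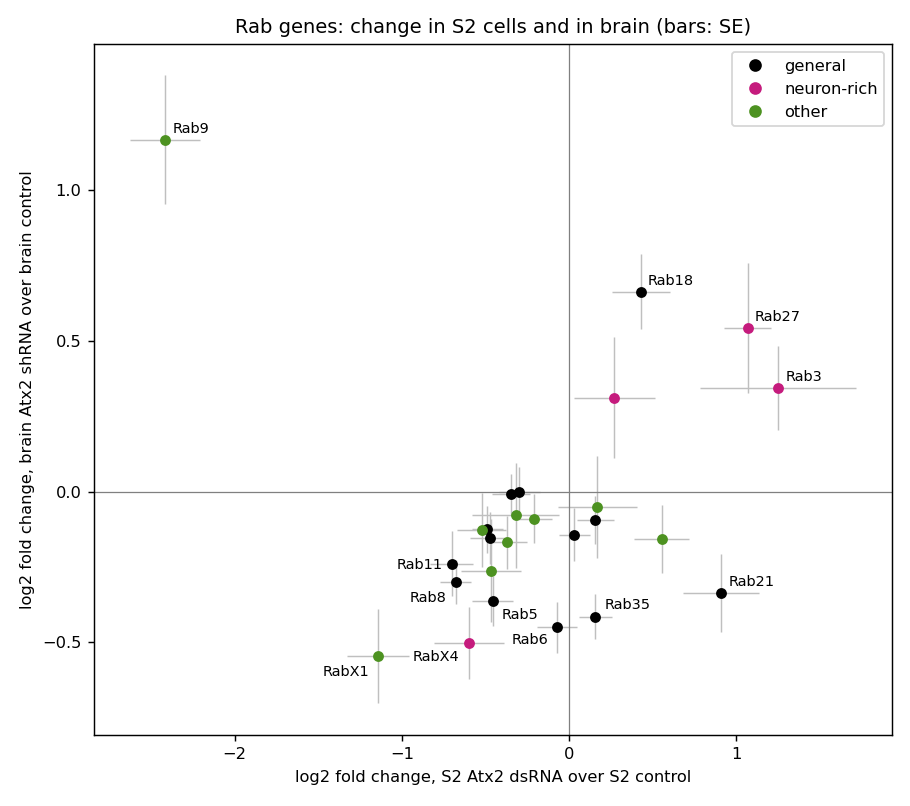
Log2 fold change of 26 Rab genes in S2 cells (x axis) and in larval brain (y axis), each point 1 gene with the SE of both fits, coloured by class. Rab9 stands alone at −2.42 in S2 cells and 1.17 in brain. Positive values in both are seen for 3 of the 4 neuron-rich genes (Rab3, Rab27 and Rab26), but of these only Rab27 in S2 cells was called.

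Shares within the Rab transcript pool do not depend on library scaling, since every Rab in a library shares 1 scaling factor. The pool is the summed CPM per kb of all 33 genes, which was 1591 ± 130 in control S2 cells, 1269 ± 49.3 after dsRNA, 1174 ± 61.4 in control brain and 1069 ± 26.9 in shRNA brain (SD, n = 3). Neuron-rich Rabs held 1.58, 1.41 and 1.41% of it in control S2 cells and 3.24, 2.56 and 2.52% after dsRNA, groups that did not overlap. Most of that rise was Rab27, with mean shares of 0.715% and 1.89%, a gene called lower in control brain than in control S2 cells. Mean shares went from 0.330 to 0.507% for Rab26, from 0.00597 to 0.0184% for Rab3 and from 0.419 down to 0.351% for RabX4. The neuron-rich Rabs together held 7.39, 8.85 and 8.89% in control brain and 11.2, 9.21 and 8.75% under shRNA, where shRNA library 3 lay within the control range. Taken as shares of Rab counts and not per kb, a choice added after the data were seen, the brain groups no longer overlapped, at 9.37 to 11.9% and 12.8 to 16.0%. General Rabs held 86.9 ± 0.83% and 87.0 ± 0.55% in the S2 groups and 78.1 ± 0.78% and 77.2 ± 1.00% in the brain groups.

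Single shares were ranked among the 26 tested Rabs only. In S2 cells those of Rab3 (log2 ratio of mean shares 1.62), Rab27 (1.41) and Rab21 (1.24) were the furthest above control. Those of Rab9 (−2.07) and RabX1 (−0.80) were the furthest below, and all 5 were without overlap. The Rab3 value rests on 11, 8 and 5 counts in controls and 13, 17 and 22 after dsRNA, and its change in S2 cells was not called. In brain Rab9 (1.31), Rab18 (0.81), Rab27 (0.70) and Rab3 (0.50) led the higher shares and RabX1 (−0.39) and RabX4 (−0.34) the lower ones, all without overlap. Rab9 went from 1.27 to 1.37% of the pool in control S2 cells to 0.247 to 0.430% after dsRNA, and from 0.265 to 0.373% in control brain to 0.602 to 0.930% under shRNA. Rab27 went from 0.674 to 0.756% to 1.56 to 2.31% in S2 cells. In brain Rab3 held 2.77 to 4.001% in controls and 4.61 to 5.27% under shRNA, and Rab18 went from 2.07 to 2.41% to 3.23 to 4.26%. In each of these sets the groups did not overlap. Over the 26 Rabs, 10 shares were higher and 5 lower without overlap in S2 cells after dsRNA, and 6 higher and 6 lower in brain. Shares of the pool exist for Rabs alone. In CPM, groups did not overlap for 63.8% of all genes tested in S2 cells and 44.5% in brain. The counts of shares are therefore not read as a trait of the Rabs. Rab11 held 20.2 ± 1.32% in control S2 cells and 15.5 ± 1.47% after dsRNA, and shares of 1 pool are not independent of each other.

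**Figure D5:**
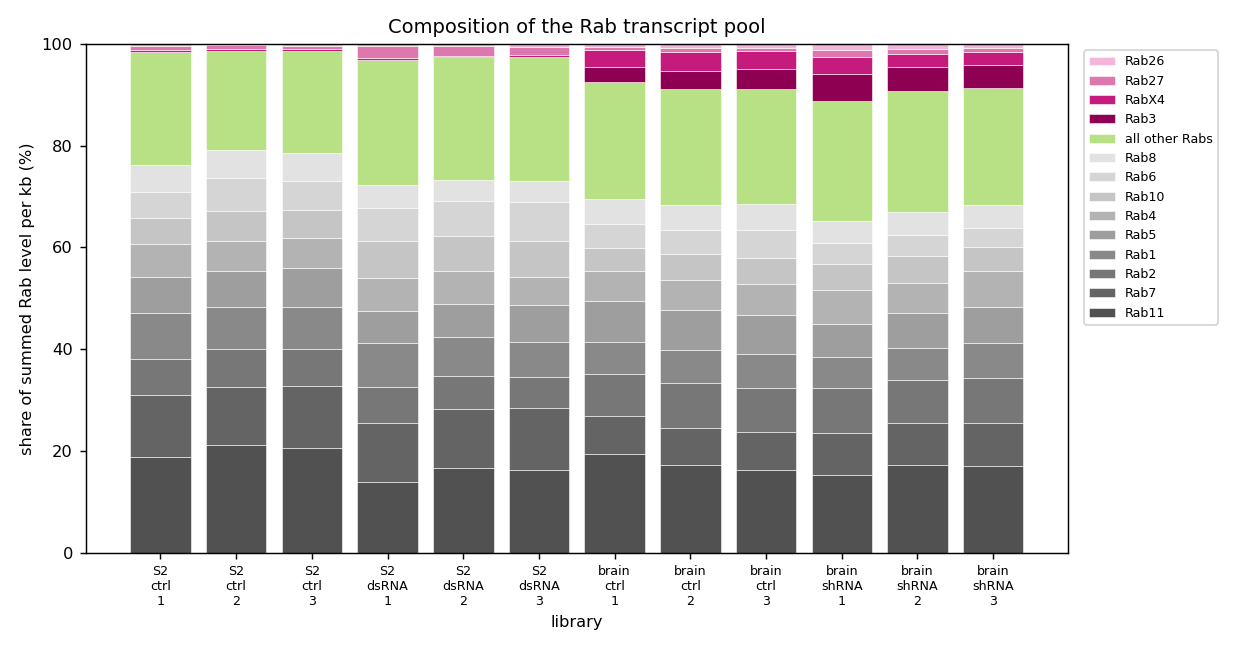
Composition of the Rab transcript pool in each library as stacked bars, in percent of the summed CPM per kb; grey bars are 9 abundant general Rabs, green is the sum of all remaining Rabs and pink bars are the 4 neuron-rich Rabs. The pink part is 1.41 to 3.24% in S2 libraries and 7.39 to 11.2% in brain libraries.

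The 3 regulators matched by name act on Rab3 and its relatives. Rab3-GEF, the exchange factor, had 2, 6 and 0 counts in control S2 libraries and 19, 14 and 14 after dsRNA (adjusted p = 0.0155), and was at 56.2, 66.9 and 63.6 CPM in control brain and 129, 97.4 and 76.0 CPM under shRNA (log2 fold change 0.70, SE 0.19, adjusted p = 0.0421). Its brain call was lost without any 1 of the libraries other than shRNA library 3, and its S2 call without control library 1. Rab3-GAP and Rab3GAP1, subunits of the complex that turns Rab3 off and is known in mammals as a Rab18 exchange factor, rose together in S2 cells, by 0.81 (adjusted p = 0.000425) and 0.64 (adjusted p = 0.00281) on the log2 scale. In brain Rab3GAP1 was called lower, from 43.1, 41.2 and 41.0 CPM to 32.4, 29.2 and 29.9 CPM (−0.45, SE 0.08, adjusted p = 0.0129), and Rab3-GAP was not called (−0.06). The difference between systems was called for both, at −1.08 for Rab3GAP1 and −0.87 for Rab3-GAP.

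Genes that load, hold or read Rabs were taken from lists of known pathway members, and their calls are read beside 55.0% of all genes called in S2 cells and 23.0% in brain. In the prenylation group, RabGGTa, the alpha subunit of the geranylgeranyl transferase, was called higher in S2 cells (log2 fold change 0.65) and the escort protein Rep lower (−0.46), though with library totals alone Rep stood at 0.03 and it lost the call without control library 3. In brain Gdi, the GDP dissociation inhibitor, fell from 725, 696 and 645 CPM to 414, 491 and 523 CPM (−0.53, SE 0.10, adjusted p = 0.0168), without overlap, and RabGGTb, the beta subunit, was called higher (0.42, adjusted p = 0.0478). Gdi lost its call without control library 1, control library 2 or shRNA library 2. Gdi was at 322, 384 and 335 CPM in control and 320, 366 and 355 CPM in dsRNA S2 libraries.

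The brain calls named below were each lost without control library 2 and without shRNA library 2. Of 11 GEFs tested in S2 cells, 5 were called higher and 1 lower, the Rab5 exchange factor spri (−1.54, from 334 to 484 CPM to 117 to 174 CPM). Of 16 GAPs, 7 were called higher and 1 lower, led by Evi5 (2.20, from 52.8 to 68.3 CPM to 255 to 286 CPM). Evi5 is a TBC-domain GAP known to act on Rab11. In brain 1 of 11 GEFs (Rab3-GEF, higher) and 2 of 16 GAPs (Rab3GAP1 and TBC1D5, both lower) were called. Of 8 TRAPP subunits, which form an exchange factor for Rab1 and Rab11, 1 was called higher in each system, Trs23 in S2 cells (0.41, lost without any 1 library other than dsRNA library 1) and Bet5 in brain (0.40).

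Of 14 effectors tested in S2 cells, 5 were called higher and 5 lower, with a median log2 fold change of 0.10. The 4 with the largest changes were btsz, a synaptotagmin-like protein (3.06, from 0.558 to 1.19 CPM to 5.38 to 10.2 CPM), Rph, or rabphilin, which binds Rab3 and Rab27 (2.09, from 0.515 to 1.28 CPM to 3.504 to 4.73 CPM), Lrrk, a kinase whose mammalian relative phosphorylates Rabs (1.82, from 13.0 to 18.7 CPM to 49.8 to 62.8 CPM), and Ehbp1 (−1.001, from 201 to 255 CPM to 104 to 135 CPM). In brain 1 of 16 was called higher, Rim (0.53, adjusted p = 0.0457), an active zone protein that binds Rab3, and 1 lower, Mical (−0.29). Golgins had 2 of 8 called lower in S2 cells (GM130, −0.55, and Golgin97, −0.49) and none of 8 in brain. Both golgin calls were lost with library totals alone (−0.059 and −0.0062), as were those of Vps16A, Sec3 and Sar1 among the lower genes of the lists that follow. HOPS and CORVET tethering subunits had 2 higher and 2 lower of 8 in S2 cells and 1 lower in brain, exocyst subunits 2 higher and 1 lower of 8 in S2 cells and 2 lower in brain, and retromer 0 of 3 in S2 cells and 1 lower in brain. Of 12 Arf family genes, the other GTPases of vesicle traffic, 3 were called higher and 3 lower in S2 cells, and Arf1 alone was called in brain (−0.37).

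Of the 7 Rabs with at most 10 counts over all libraries, 6 lie in 1 stretch of X. RabX2 and the 5 Rab9-like copies lie on X between positions 10417429 and 10952486 of BDGP6, a span of 535 kb, and each is annotated with 1 exon. Rab9D, Rab9Db, Rab9E and Rab9Fa had 0 counts in all 12 libraries. With 3 counts over a group as the limit that a count of 0 allows, this leaves levels of up to 0.0452 CPM in control S2 cells, 0.0486 after dsRNA, 0.0313 in control brain and 0.0351 in shRNA brain, as far as counting error goes. Rab9Fb had 5 counts, all in shRNA brain libraries 1 and 2. RabX2 had 10 counts in all, spread over libraries of all 4 groups, and RabX5, on 3L, had 1 count, in control brain library 3. The handling of reads that match more than 1 copy is likewise not known here, so these values hold only for reads assigned to a single copy.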

How the data were processed

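Poly(A) RNA-seq of 12 libraries was deposited as raw counts of reads per gene, 1 table a library. The submitters' processing notes name cutadapt 1.13, STAR, HTSeq 0.6.1p1, DESeq2 and the build BDGP6, without roles; no annotation release, strand setting or rule for reads that match several copies is given in the sources used here. The counts hold whole numbers for 17737 genes, and 17599 gene IDs were matched to symbols through the BDGP6.54 annotation, which also gave exon lengths and positions; the 138 unmatched IDs held 0.995 to 1.39% of counts.

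Counts were tested with edgeR 4.0.16 (R 4.3.3) by quasi-likelihood fits over all genes kept by filterByExpr with a minimum count of 10, with TMM scaling and Benjamini-Hochberg adjustment over all genes tested; a gene is called at an adjusted p under 0.05. S2 cells, brains and controls were each fitted on their own 6 libraries, and the difference between systems on all 12. The SE of a log2 fold change was computed from its fitted coefficient and the quasi-likelihood F statistic, so it restates the test (limma 3.58.1 was loaded with edgeR). Levels per kb used TMM over all 12 libraries and exon length. A count of 0 was given the limit of 3 counts over a group, which covers counting error only, since the reads carry no molecular identifiers. The fits were tested on simulated data first.

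The Rab members and the pathway and marker lists were chosen with earlier results of these data known, so no list is independent support. Every Rab GTPase is named, with Atx2, the marker lists and, of each pathway list, up to 4 called genes with the largest absolute log2 fold change per comparison; a few other values, such as Gdi in S2 cells, are given for contrast. Replicates of a group differed by more than counting noise, with chi-square per degree of freedom of 24.1 to 165, so no library was counted as a copy of another. Alternatives were RLE, upper quartile and library-total scaling, no filter, a filter of 5 CPM in 3 libraries, DESeq2 1.42.0, a replicate block, leaving out each library, 1 fit of all 12 libraries and brains without control library 3 and shRNA library 1.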

Additional observations from a re-analysis of the deposited data

Results flagged for a closer look

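For 12 genes the log2 fold change in brain differed from that in S2 cells by the interaction test (adjusted p under 0.05 in edgeR), and the values are given as brain minus S2. Among the GTPases, Rab9 differed by 3.59, Rab11 by 0.47, Rab8 by 0.39, Rab2 by 0.37 and Rab7 by 0.35. On the negative side Rab21 differed by −1.23, Rab40 by −0.70, Rab35 by −0.56 and Rab6 by −0.37. The regulators Rab3-GEF, Rab3GAP1 and Rab3-GAP differed by −1.91, −1.08 and −0.87, and Rab3-GEF had 8 counts in all 3 control S2 libraries together. Its difference ran from −3.21 to −1.36 over the alternatives and lost the call in 7 of 19: the replicate block (in edgeR) and without S2 control library 1 or 3, S2 dsRNA library 1 or 3, brain control library 2 or brain shRNA library 2.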

How the results depend on the processing

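With library totals alone, values in S2 cells turned to 0.014 for Rab1, 0.19 for Rab4, 0.031 for Rab5, 0.41 for Rab6, 0.14 for Rab7, 0.11 for Rab30, 0.17 for Rab32, 0.28 for Rab39, 0.022 for RabX6, 0.030 for Rep and 0.082 for Vps33B. Those in brain turned to 0.010 for Rab4 and 0.0041 for Rab7. Those for the difference between systems turned to −0.16 for Rab1, −0.011 for Rab11, −0.25 for Rab18, −0.11 for Rab2, −0.18 for Rab4, −0.38 for Rab5, −0.14 for Rab7, −0.096 for Rab8, −0.44 for Rab26, −0.38 for RabX4, −0.083 for Rab19, −0.27 for Rab30, −0.24 for Rab32, −0.36 for Rab39 and −0.27 for RabX6. Those between controls turned to 0.094 for Rab14, 0.18 for Rab2 and 0.073 for Rab5. A change of scaling applies 1 factor per library to all genes. With library totals alone the median log2 fold change of all genes tested moved too, from 0.04 to 0.53 in S2 cells. It moved from 0.01 to 0.02 in brain, from −0.10 to −0.57 for the difference and from 0.06 to 0.43 between controls. Why the scalings differ was not tested. Leaving out 1 library at a time gave 7 to 15 called Rabs in S2 cells, 0 to 7 in brain, 5 to 8 for the difference between systems and 19 to 23 between controls. The shares of all genes called ran from 41.7 to 58.7%, 4.58 to 21.9%, 33.7 to 40.7% and 73 to 78.2% in the same order. Brain without control library 3 and shRNA library 1 gave 3, with 4 libraries left in the fit. With the replicate block edgeR called 0 Rabs in brain (8 had an unadjusted p under 0.05), 15 in S2 cells, 6 for the difference and 22 between controls. Of all genes tested, it called 0.383, 60.5, 38 and 76.8% in the same order. Whether the replicate numbers pair the samples is undecided. The correlation of deviations from group means between same-numbered libraries was 0.44, 0.38 and 0.02 in S2 cells and 0.12, 0.28 and −0.49 in brain. Not every library correlated best with its own number. With 3 libraries per group the deviations constrain each other, so these values cannot decide the question. DESeq2 called 15, 8, 9 and 23 Rabs in S2 cells, brain, the difference and the controls. Over the Rab genes, the 3 regulators included, 1503 results kept their direction and side of the threshold, 175 lost the call, 55 gained it and 62 changed sign; of the 61 sign changes among GTPases, 14 were called under either setting and 47 under neither. With upper quartile scaling values turned to 0.11 for Rab6 in S2 cells, and 0.028 for Rab4 and 0.022 for Rab7 in brain, and −0.054 for Rab5, −0.11 for Rab26, −0.049 for RabX4 and −0.031 for Rab39 for the difference between systems. With no filter values turned to −0.018 for Rab10 in S2 cells. With the stricter filter values turned to 0.00097 for Rab6 in S2 cells, and 0.032 for Rab4 and 0.026 for Rab7 in brain. Without brain control library 3 and shRNA library 1 values turned to 0.012 for Rab23 in brain. With 1 fit of all 12 libraries values turned to 0.015 for Rab4 and 0.0087 for Rab7 in brain. With the replicate block (pairing of the samples is undecided) values turned to −0.00099 for Rab26 for the difference between systems. Leaving out 1 library at a time, values that changed sign ran from −0.0081 to 0.039 for Rab10 and from −0.16 to 0.0095 for Rab6 in S2 cells. They ran from −0.049 to 0.058 for Rab4, from −0.038 to 0.021 for Rab7, from −0.23 to 0.085 for Rab23, from −0.20 to 0.0053 for Rab32 and from −0.12 to 0.013 for Rab3-GAP in brain. They ran from −0.0025 to 0.39 for Rab18, from −0.25 to 0.29 for Rab26 and from −0.047 to 0.24 for RabX4 for the difference between systems. Depth limits the 7 Rabs at or below 10 counts in all, and Rab3 and Rab3-GEF in S2 cells.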
